A study of Mus musculus with 32 samples.

Results

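The Siglecs are sialic acid-binding, immunoglobulin-like lectins on the surface of immune cells. All 7 Siglec genes that were sought by symbol, Siglech, Siglece, Siglec1, Siglec5, Siglecg, Cd33 and Cd22, had a row among the 17586 genes measured in RNA from cells sorted out of mouse brain. Their 32 libraries fell into 4 labelled populations of 8. Differentiated macrophages, undifferentiated macrophages and microglia of the tumour came from immunocompetent chimeric mice that carried intracranial GL-261 cells, a mouse glioma line grown in a matching strain. Normal microglia came from mice with no tumour and no graft. In each tumour population 4 libraries were labelled as Pep3 (CD45.1) cells into WT recipients (C57BL/6J) and 4 as WT cells into Pep3 recipients. In normal microglia 4 libraries came from each strain. No mouse received a drug treatment. The labels state neither ages nor sorting gates, nor how much of its own blood system a chimeric host kept. Tumour, chimerism and experiment number all changed together between tumour and normal microglia (experiments 3 and 4 against 1 and 2), so their parts cannot be told apart. Whether each library came from its own mouse is not labelled. The p-values reflect only the scatter among libraries, some of which may be technical.

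Sialic acids cap the glycans of the body's own cells, and most Siglecs read that cap as a sign of self. Inhibitory Siglecs carry tyrosine motifs in the cytoplasm that recruit the phosphatases SHP-1 and SHP-2 and dampen activating receptors. Siglec-H lacks such motifs and pairs with the adaptor DAP12, encoded by Tyrobp, while Siglec-1 acts mainly as an adhesion receptor. Microglia carry several of these receptors, and sialic acid on glioma cells is one of their possible ligands.

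The deposited values were signed scores centred on 0 for each gene within each recipient strain. Each score is thus a position relative to that gene's mean in its strain. It says nothing about how genes compare with each other in abundance. A fitted difference is in units of the deposited scale, with its standard error (SE), and was called at an adjusted p below 0.05 over all 17586 genes (limma). The scores spanned fewer dimensions than libraries, and the fit allowed for the 11 sample directions that held no variation. A fitted difference can therefore differ from the difference of plain means. These are bulk RNA values, in which fewer cells of a type and less RNA per cell cannot be told apart. The labelled populations went with their markers: all 10 measured microglial markers were lower in both macrophage populations than in tumour microglia, and 7 of 8 (differentiated) and 8 of 8 (undifferentiated) monocyte-derived macrophage markers were higher. No neutrophil marker sought was in the table, and library depth is unknown. In 9 libraries under 50% of their own variation was left (3.42% to 38.96%): tumour differentiated libraries 28 and 31, undifferentiated libraries 8 and 29, tumour microglia library 27 and normal libraries 1, 10, 18 and 26.

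The family split in opposite directions in the tumour. In tumour microglia 4 Siglec genes (Siglec1, Siglec5, Siglecg and Cd22) were higher than in normal microglia and 1 (Siglece) was lower, where 16.7% of all genes were called, 4.66% higher and 12% lower. In differentiated macrophages 3 (Siglech, Siglec5 and Cd33) were lower than in tumour microglia and 0 were higher (limma), where 43.4% of all genes were called, 37% higher and 6.35% lower. At an unadjusted p below 0.05 this comparison held 4 of the 7, Siglec1 being the added gene. In undifferentiated macrophages the same 3 were lower than in tumour microglia and Siglec1 was higher, where 41.9% of all genes were called, 36.7% higher and 5.19% lower. Against normal microglia, Siglech, Siglece and Cd33 were lower in both macrophage populations. Siglec1 was higher in both, and Cd22 was called higher in differentiated macrophages and not called in undifferentiated macrophages. The background there was 32.7% of genes called for differentiated macrophages (24.7% higher, 8.02% lower) and 28% for undifferentiated macrophages (21.8% higher, 6.18% lower). In this fit most called genes in the macrophages were thus higher, while most called Siglec genes were lower. The lean of all genes to higher calls depended on the centring of the libraries, as given below. Without the 9 libraries named above the fit called almost nothing, with 0 of 17586 genes in 3 comparisons and at most 4 in the others (limma, 6 residual degrees of freedom). No Siglec gene was called there, at most 2 had an unadjusted p below 0.05, and Cd33 turned sign in differentiated macrophages, to 0.57 against tumour microglia and 1.02 against normal microglia. With the covariates left out as well, a setting added after seeing the data, 3 genes were called in differentiated and 4 in undifferentiated macrophages against tumour microglia. Of all genes, 5456 were called in differentiated and 5323 in undifferentiated macrophages there. That setting gave 5 in differentiated (all genes 3255) and 4 in undifferentiated macrophages (all genes 3309) against normal microglia. It gave 0 of 7 in tumour against normal microglia (all genes 133), with 5 of the 7 at an unadjusted p below 0.05. Library weights also gave 0 for tumour against normal microglia, with 5 at an unadjusted p below 0.05, where 745 of all genes were called.

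**Figure D1:**
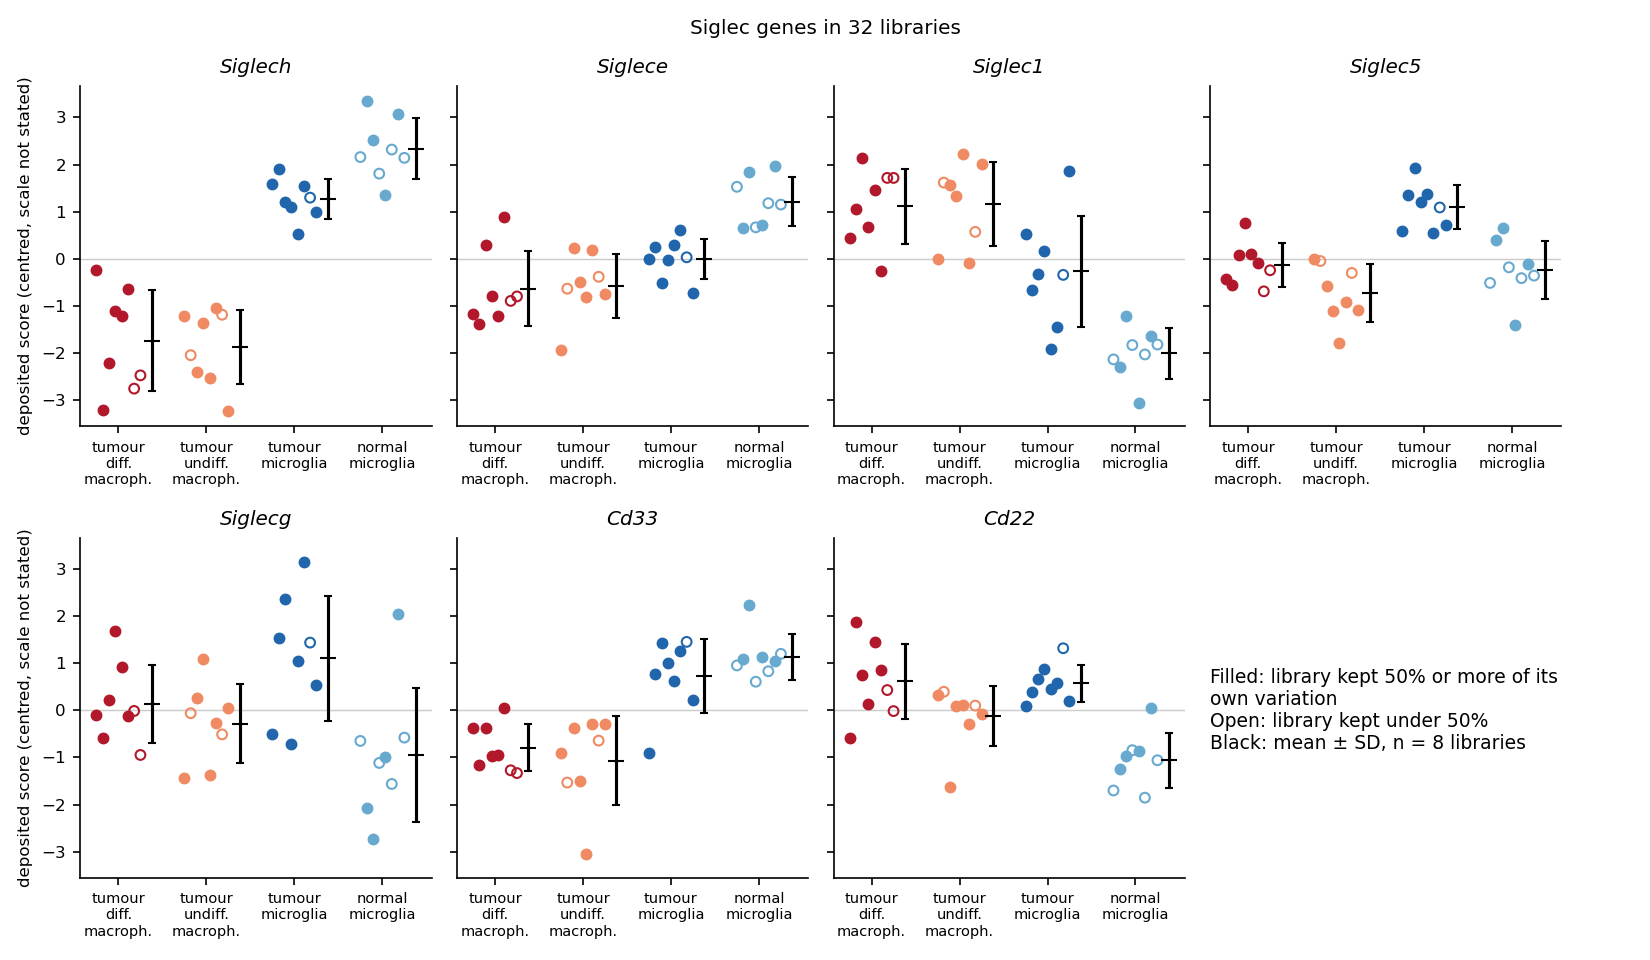
Deposited score of each Siglec gene (vertical axis, centred on 0 for each gene) in each of the 32 libraries, by population, with the mean and SD of the 8 libraries. Siglech lies above 0 in all 16 microglial libraries and below 0 in all 16 macrophage libraries, while Siglec1 is lowest in normal microglia.

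The differences between all genes were themselves off centre. The median over all genes was -0.25 for tumour microglia against normal microglia. Against tumour microglia it was 0.65 for differentiated and 0.71 for undifferentiated macrophages, and against normal microglia it was 0.53 for differentiated and 0.57 for undifferentiated macrophages. With each library's median subtracted, Siglece and Siglecg joined the genes called lower in differentiated macrophages than in tumour microglia (5 of 7). Over all genes 3486 were called higher and 3385 lower there. In undifferentiated macrophages Siglece, Siglecg and Cd22 joined them and Siglec1 was no longer called (6 of 7, all lower). Of all genes, 2934 were called higher and 2862 lower in that comparison. With the same step Siglece was no longer called between the microglial populations (4 of 7), where 1358 of all genes were higher and 1336 lower. Siglec5 was then called lower in undifferentiated macrophages than in normal microglia (5 of 7), where 1373 of all genes were higher and 1860 lower. For differentiated macrophages against normal microglia the 5 genes called before were called again, where 1843 of all genes were higher and 2300 lower. Of the 42 gene and comparison pairs, 3 turned direction with that step, none of them called: Cd22 between differentiated macrophages and tumour microglia, Siglece between the macrophage populations, and Siglec5 between differentiated macrophages and normal microglia.

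Siglech encodes Siglec-H, which in the mouse is known from microglia and plasmacytoid dendritic cells. Its lowest, median and highest scores were -3.21, -1.72 and -0.23 in differentiated macrophages, -3.22, -1.70 and -1.05 in undifferentiated macrophages, 0.54, 1.26 and 1.90 in tumour microglia and 1.36, 2.24 and 3.34 in normal microglia. Neither macrophage population overlapped either microglial population, which held for 8.4% (differentiated) and 8.09% (undifferentiated) of all genes against tumour microglia and for 8.46% (differentiated) and 8.71% (undifferentiated) against normal microglia. Differentiated macrophages were lower than tumour microglia by a fitted difference of -3.02 ± 0.40 (SE, adjusted p = 1.58e-05), and undifferentiated macrophages by -3.76 ± 0.41 (adjusted p = 4.1e-06). These calls held whichever of the 32 libraries was left out. Against normal microglia the differences were -3.97 ± 0.39 (adjusted p = 2.65e-07) in differentiated and -4.71 ± 0.41 (adjusted p = 8.09e-08) in undifferentiated macrophages.

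Siglech averaged 1.27 ± 0.42 in tumour microglia and 2.34 ± 0.64 in normal microglia (SD, n = 8 each), but the ranges overlapped and the fitted difference of -0.95 ± 0.38 was not called (adjusted p = 0.0871). It was called when differentiated macrophage library 28 was left out (-1.08, adjusted p = 0.0413), and other omissions gave -1.40 to -0.20. The order of the means was normal microglia, tumour microglia, differentiated macrophages and undifferentiated macrophages, and of the neighbours in it only tumour microglia and differentiated macrophages differed by a call. Population accounted for 86.8% of the variance of Siglech over the libraries, more than for 99.7% of all genes, whose median was 36.9%.

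Plasmacytoid dendritic cell markers did not move as 1 group beside Siglech. Of 5 measured, 3 were higher and 2 lower in differentiated macrophages than in tumour microglia, and 2 higher and 1 lower in undifferentiated macrophages. The transcription factor Tcf4 went lower in differentiated macrophages (-0.82, adjusted p = 0.035) and Runx2 higher (2.31, adjusted p = 0.000209). Their part in the Siglech result was not tested. Tyrobp, which encodes the DAP12 partner of Siglec-H, had a difference of -0.78 (adjusted p = 0.0696) in differentiated macrophages and was lower in undifferentiated macrophages (-0.96, adjusted p = 0.0358), both against tumour microglia. A non-coding gene, Gm39015, overlaps Siglech in the GRCm38 annotation and was not measured here.

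Cd33 encodes a Siglec of myeloid cells whose human counterpart is an inhibitory receptor. Its lowest, median and highest scores were -1.33, -0.95 and 0.04 in differentiated macrophages, -3.05, -0.78 and -0.28 in undifferentiated macrophages, -0.90, 0.90 and 1.45 in tumour microglia and 0.61, 1.07 and 2.24 in normal microglia. Normal microglia lay wholly above both macrophage populations, and tumour microglia overlapped both of them. Differentiated macrophages were lower than tumour microglia by -1.57 ± 0.44 (SE, adjusted p = 0.00589) and undifferentiated macrophages by -2.15 ± 0.46 (adjusted p = 0.000885). Against normal microglia the differences were -1.87 ± 0.43 in differentiated (adjusted p = 0.00249) and -2.45 ± 0.45 in undifferentiated macrophages (adjusted p = 0.000539). The means of Cd33 followed the same order as those of Siglech, with -0.80 in differentiated and -1.07 in undifferentiated macrophages. By median the undifferentiated macrophages stood above the differentiated ones, and these populations were not called apart. The microglial populations were close, with a difference of -0.30 ± 0.42 between tumour and normal microglia (adjusted p = 0.66).

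The calls of Cd33 in differentiated macrophages rested on few libraries. Against tumour microglia the call was lost without tumour microglia library 27 (-1.31), without differentiated macrophage library 28 (-1.51) or without undifferentiated macrophage library 8 (-1.22). Against normal microglia it was lost without normal library 10 (-1.92, adjusted p = 0.0501). The calls in undifferentiated macrophages held under every single omission.

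Siglec5 is the third gene of this kind, with a different order. RefSeq lists the symbol Siglec5 as an older name of both Siglecf and Siglece, and Siglece has a row of its own, so the row is read here as Siglecf, although the table does not settle it. Mouse Siglec-F is an inhibitory receptor known from eosinophils and alveolar macrophages. Its lowest, median and highest scores were -0.69, -0.17 and 0.76 in differentiated macrophages, -1.79, -0.75 and -0.00024 in undifferentiated macrophages, 0.56, 1.15 and 1.93 in tumour microglia and -1.40, -0.27 and 0.64 in normal microglia. Tumour microglia stood highest and overlapped differentiated macrophages and normal microglia but not undifferentiated macrophages.

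Siglec5 was higher in tumour microglia than in normal microglia by 1.39 ± 0.36 (SE, adjusted p = 0.0117). It was lower than in tumour microglia by -1.14 ± 0.37 in differentiated macrophages (adjusted p = 0.017) and by -2.15 ± 0.39 in undifferentiated macrophages (adjusted p = 0.000243). Against normal microglia neither macrophage population was called, with 0.25 ± 0.36 (adjusted p = 0.612) in differentiated and -0.76 ± 0.39 (adjusted p = 0.142) in undifferentiated macrophages. Tumour microglia were therefore called higher than each of the other 3 populations for this gene, although they overlapped 2 of them in range. The call between the microglial populations was lost without normal library 1, 10, 18 or 26 (1.23 to 1.63). The call in differentiated macrophages was lost without differentiated library 4, 7 or 28 or undifferentiated library 29 (-1.06 to -0.88). Of 7 eosinophil markers sought only 2 were measured. Il5ra, the interleukin-5 receptor, was lower in tumour microglia than in normal microglia (-1.74, adjusted p = 0.00416), and Ccr3 was not called (-0.64, adjusted p = 0.508). Both were opposite in sign to Siglec5 there. Il5ra was also opposite in the macrophages, where it was higher than in tumour microglia by 1.79 in differentiated (adjusted p = 0.00109) and 2.42 in undifferentiated cells (adjusted p = 0.00015). The part of eosinophils in the Siglec5 result was not tested.

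The promoters of these 3 genes are shown because they are the Siglec genes called lower in both macrophage populations than in tumour microglia. Each holds 300 bases around the annotated start in RefSeq on GRCm38.p6, and serves for sequence only, as the authors' build was mm9. Capitals mark the ETS core GGAAGT and the RUNX core TGTGGT, or their complements ACTTCC and ACCACA. The first window is chr7:55767934-55768233 on the plus strand, the second chr7:43351091-43351390 on the plus strand, the third chr7:43533122-43533421 on the minus strand.
Siglech: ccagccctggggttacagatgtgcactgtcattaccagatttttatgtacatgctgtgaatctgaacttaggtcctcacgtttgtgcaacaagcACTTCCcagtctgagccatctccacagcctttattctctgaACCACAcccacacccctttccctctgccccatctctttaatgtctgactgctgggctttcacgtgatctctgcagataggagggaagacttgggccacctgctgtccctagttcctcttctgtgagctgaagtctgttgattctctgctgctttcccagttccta
Siglecf, for Siglec5: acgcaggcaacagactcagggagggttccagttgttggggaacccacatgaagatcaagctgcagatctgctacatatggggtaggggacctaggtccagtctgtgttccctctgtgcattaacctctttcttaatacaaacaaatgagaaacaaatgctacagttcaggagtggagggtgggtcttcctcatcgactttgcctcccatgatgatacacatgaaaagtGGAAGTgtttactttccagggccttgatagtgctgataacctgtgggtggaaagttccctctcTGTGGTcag
Cd33: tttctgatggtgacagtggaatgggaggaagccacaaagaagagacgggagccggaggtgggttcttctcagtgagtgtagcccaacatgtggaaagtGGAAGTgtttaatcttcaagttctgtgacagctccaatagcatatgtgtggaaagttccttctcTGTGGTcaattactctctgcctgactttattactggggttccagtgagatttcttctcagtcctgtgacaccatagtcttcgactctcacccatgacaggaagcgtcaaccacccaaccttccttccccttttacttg

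Each of the 3 windows held 1 ETS core and 1 RUNX core, counting both strands. The ETS core was in 23.8% of all 32851 RefSeq promoter windows of that length, the RUNX core in 16.8% and both together in 4.18%. The windows of Siglece, Siglecg and Cd22 held neither. None of the windows read held GAAA, any 2 bases and GAAA again, an interferon response element found in 3.44% of all windows. No window of Siglec1 was available, so this does not cover that gene. The matches do not overlap in these windows, and the motifs were chosen after the sequences had been seen. The Siglecf and Cd33 windows shared a run of 16 bases, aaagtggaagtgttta, which contains the ETS core. Their RUNX cores also lay in nearly identical letters, gtggaaagttccctctcTGTGGTca in Siglecf and gtggaaagttccttctcTGTGGTca in Cd33. The matches in the Siglecf and Cd33 windows therefore cannot be counted as separate occurrences beside the 4.18%. The longest run that Siglech shared with either was 9 bases. A match is a description of the letters and not a site of binding.

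Siglece encodes Siglec-E, an inhibitory receptor of mouse myeloid cells with cytoplasmic tyrosine motifs. Its lowest, median and highest scores were -1.39, -0.85 and 0.89 in differentiated macrophages, -1.94, -0.56 and 0.23 in undifferentiated macrophages, -0.72, 0.01 and 0.61 in tumour microglia and 0.66, 1.17 and 1.97 in normal microglia. Normal microglia stood above the other 3 populations, with 1 differentiated macrophage library reaching into their range. Siglece was lower than in normal microglia in differentiated macrophages (-1.87 ± 0.40, SE, adjusted p = 0.00152), undifferentiated macrophages (-1.81 ± 0.42, adjusted p = 0.00364) and tumour microglia (-1.20 ± 0.39, adjusted p = 0.0395). It is the only one of the 7 genes called lower in all 3 tumour populations than in normal microglia.

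Within the tumour Siglece did not separate the populations. Against tumour microglia the differences were -0.67 ± 0.41 (adjusted p = 0.192) in differentiated and -0.62 ± 0.43 (adjusted p = 0.257) in undifferentiated macrophages. The call between the microglial populations was the least stable of the family. It was lost in 14 of the 32 omissions: tumour microglia libraries 3, 6, 11, 14, 27 and 30, normal libraries 1, 2, 9, 10, 18, 25 and 26, and undifferentiated macrophage library 8, with differences of -1.58 to -1.005 and adjusted p of 0.0519 to 0.373. Without normal library 2 the undifferentiated macrophages were no longer called against normal microglia (-1.53, adjusted p = 0.0878). Ceacam18 and Ctu1 overlap Siglece in the GRCm38 annotation, and without a stated strand setting their reads cannot be told apart. Neither was called in a comparison with normal microglia. Ceacam18 was higher in differentiated macrophages than in tumour microglia (1.19 ± 0.37, adjusted p = 0.0116).

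Cd22 and Siglecg encode inhibitory receptors best known from B cells, where both restrain antigen receptor signalling, and CD22 has also been described on aged mouse microglia. Cd22 had lowest, median and highest scores of -0.58, 0.59 and 1.86 in differentiated macrophages, -1.62, 0.10 and 0.39 in undifferentiated macrophages, 0.10, 0.51 and 1.32 in tumour microglia and -1.85, -1.01 and 0.04 in normal microglia. Tumour microglia lay wholly above normal microglia, and 1.77% of all genes had no overlap between these populations in either direction. The difference was 1.70 ± 0.40 (SE, adjusted p = 0.00602). Differentiated macrophages were also higher than normal microglia (1.78 ± 0.40, adjusted p = 0.00224), and undifferentiated macrophages had a difference of 0.87 ± 0.43 (adjusted p = 0.125).

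Against tumour microglia Cd22 was not called in differentiated (0.08 ± 0.41, adjusted p = 0.89) or undifferentiated macrophages (-0.83 ± 0.43, adjusted p = 0.124). The first of these changed sign in 6 of 32 omissions (-0.22 to 0.59 over all omissions): tumour microglia library 3 (-0.01), differentiated libraries 7 (-0.22), 20 (-0.14) and 28 (-0.13), undifferentiated library 8 (-0.08) and normal library 2 (-0.02). The higher score in tumour than in normal microglia was no longer called without tumour microglia library 27 or normal library 1, 10 or 18 (1.05 to 1.70). The call in differentiated macrophages against normal microglia was lost without normal library 1, 10 or 18 (1.11 to 1.79). Without undifferentiated macrophage library 13, the lowest of its population, that population was called higher than normal microglia (1.15, adjusted p = 0.0497).

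Siglecg varied widely within populations. Its lowest, median and highest scores were -0.95, -0.06 and 1.68 in differentiated macrophages, -1.44, -0.17 and 1.09 in undifferentiated macrophages, -0.71, 1.24 and 3.16 in tumour microglia and -2.73, -1.05 and 2.05 in normal microglia. All 4 ranges overlapped, and population accounted for 33.1% of its variance, below the 36.9% of the median gene. The only call was for tumour microglia against normal microglia, at 2.23 ± 0.63 (SE, adjusted p = 0.0182), and it was lost without tumour microglia library 27 or normal library 1, 10, 18 or 26 (1.65 to 3.18). Against tumour microglia the differences were -1.12 ± 0.65 (adjusted p = 0.171) in differentiated and -1.54 ± 0.68 (adjusted p = 0.0718) in undifferentiated macrophages. The second was called without tumour microglia library 3 or 14 or normal library 1 or 9 (-1.86 to -1.59). Neither sign was stable. In differentiated macrophages the difference was 1.17 with the compared populations alone, 1.82 in WT recipients, 4.23 in Pep3 recipients and 3.16 without the 9 libraries. In undifferentiated macrophages it was 3.29 in WT recipients, 4.28 in Pep3 recipients and 2.31 without the 9 libraries. Against normal microglia the differences were 1.11 ± 0.63 in differentiated (adjusted p = 0.172) and 0.69 ± 0.67 in undifferentiated macrophages (adjusted p = 0.446). The first of these was called without undifferentiated library 29 (2.03) or normal library 25 (1.56).

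B cell markers were examined beside these receptors. None of the 5 measured was called between tumour and normal microglia, where Cd22 and Siglecg were (limma), and 0 had an unadjusted p below 0.05. Their differences ran from -0.87 for Cd79b to -0.12 for Ms4a1, opposite in sign to both genes. In the macrophages Ms4a1, which encodes CD20, was higher than in normal microglia by 1.42 (adjusted p = 0.00418) in differentiated and 1.58 (adjusted p = 0.00373) in undifferentiated cells. Cd79a and Blk were also higher in both, while Cd37 and Cd79b were lower. The part of B cells in the Cd22 and Siglecg results was not tested in any population.

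Siglec1 encodes sialoadhesin (CD169), an adhesion receptor of macrophages whose gene responds to interferon. Its lowest, median and highest scores were -0.26, 1.26 and 2.14 in differentiated macrophages, -0.08, 1.45 and 2.22 in undifferentiated macrophages, -1.92, -0.34 and 1.86 in tumour microglia and -3.07, -1.93 and -1.22 in normal microglia. Both macrophage populations lay wholly above normal microglia, and tumour microglia spread across the ranges of the other 3. Siglec1 was higher than in normal microglia in differentiated macrophages (3.06 ± 0.53, SE, adjusted p = 0.000228), undifferentiated macrophages (3.40 ± 0.56, adjusted p = 0.000176) and tumour microglia (1.84 ± 0.52, adjusted p = 0.0189).

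Against tumour microglia Siglec1 was higher in undifferentiated macrophages (1.56 ± 0.56, SE, adjusted p = 0.0302), and in differentiated macrophages the difference of 1.22 ± 0.54 was not called (adjusted p = 0.0711). The first call was lost in 10 of 32 omissions: tumour microglia libraries 6, 22 and 27, differentiated libraries 28 and 31, undifferentiated libraries 8, 13, 21 and 32, and normal library 1 (1.19 to 1.499). The second became a call without tumour microglia library 3 or 30, differentiated library 4 or undifferentiated library 29 (1.41 to 1.59). The contrasts with normal microglia moved with normal library 10. Without it the differences were 1.67 in differentiated macrophages (adjusted p = 0.0913) and 0.64 in tumour microglia (adjusted p = 0.558), neither called, while undifferentiated macrophages kept their call at 2.43. The tumour microglia call was also lost without tumour microglia library 27 or 30 or normal library 1 or 18 (1.46 to 2.20).

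The type I interferon response genes moved with Siglec1 between tumour and normal cells. Of 15 measured, 13 were higher in tumour microglia than in normal microglia and 0 were lower, with a list median of 2.65 against -0.25 for all genes. In differentiated macrophages 13 and in undifferentiated macrophages 12 were higher than in normal microglia, with medians of 2.36 in differentiated and 2.40 in undifferentiated macrophages. Oas2, an antiviral RNA sensor, differed from normal microglia by 3.05 in differentiated macrophages, 2.40 in undifferentiated macrophages and 3.66 in tumour microglia. Irf7, a transcription factor of interferon induction, differed by 3.87 in differentiated macrophages, 4.18 in undifferentiated macrophages and 3.08 in tumour microglia. Between macrophages and tumour microglia the list did not follow Siglec1. None of the 15 was called higher in either macrophage population (limma), with 1 in differentiated and 2 in undifferentiated macrophages higher at an unadjusted p below 0.05. In each 1 was lower, Ifit3 in differentiated (-1.33) and Oas2 in undifferentiated macrophages (-1.26). Border-associated macrophage markers, which mark a resident type known for Siglec-1, were higher for 4 of 6 and lower for 1 of 6 in either macrophage population than in tumour microglia. Their part in the Siglec1 result was not tested.

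**Figure D2:**
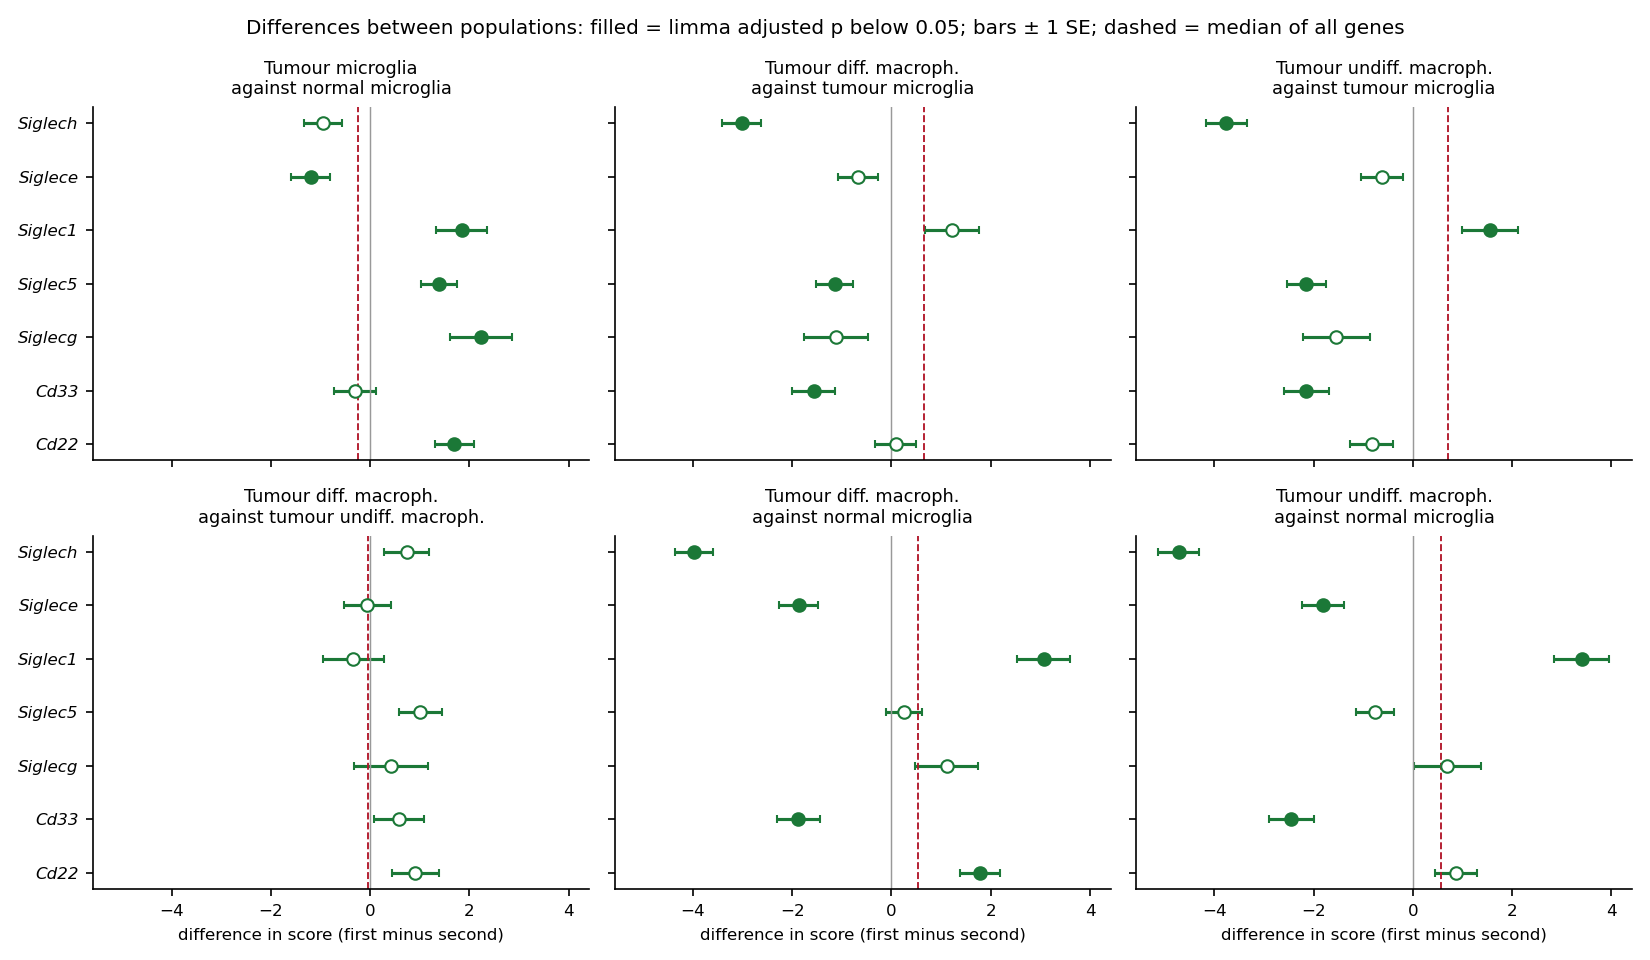
Fitted difference in deposited score of each Siglec gene (horizontal axis, with the SE) in the 6 comparisons, filled points marking an adjusted p below 0.05. Siglech, Cd33 and Siglec5 lie left of 0 in both macrophage populations against tumour microglia, and Siglec1 lies right of 0 in all 3 tumour populations against normal microglia.

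Differentiated and undifferentiated macrophages could not be separated by any Siglec gene. Of the 7 genes 0 were called (limma), where 2 of 17586 genes were called (0.0114%) and 491 had an unadjusted p below 0.05. Siglec5 was the 1 member with an unadjusted p below 0.05, at 1.01 ± 0.43 (SE). Its means were -0.13 ± 0.46 in differentiated and -0.73 ± 0.61 in undifferentiated macrophages (SD, n = 8 each). Siglech averaged -1.73 ± 1.07 in differentiated and -1.87 ± 0.79 in undifferentiated macrophages (SD, n = 8 each), a difference within the spread of either. The 11 directions without variation left 67.6% of this contrast in the table, less than of the other 5 comparisons, which kept 85.4% to 96.7%.

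The differences between populations were also compared between recipient strains. In every population the recipient strains came from different experiments, and in the tumour populations also from different donor strains. Recipient strain, donor strain and experiment therefore cannot be told apart in this test. The scores of each gene already averaged 0 within each recipient strain. An overall strain difference could therefore not be seen, only a difference between strains in how populations compared. Of the 42 gene and comparison pairs, 0 showed a called difference between Pep3 and WT recipients (limma interaction), and 2 had an unadjusted p below 0.05, both for Siglech against tumour microglia. The lowest adjusted p was 0.188. Over all genes the same test called 884 between the microglial populations, 79 between differentiated macrophages and tumour microglia and 0 to 4 in each of the other 4 comparisons. The fitted difference of Siglech between differentiated macrophages and tumour microglia was more negative in Pep3 than in WT recipients by -2.81 ± 1.07 (SE). For undifferentiated macrophages the value was -2.41 ± 1.13. The plain means of Siglech showed a far smaller gap. In WT recipients they were -1.61 in differentiated macrophages, -1.83 in undifferentiated macrophages and 1.16 in tumour microglia. In Pep3 recipients they were -1.86, -1.92 and 1.38 in the same order. The plain means kept the sign of all 21 called differences in either strain and, where both populations were in them, within experiments 3 and 4. Of the differences not called, 4 had the opposite sign in a strain: Cd22 in differentiated macrophages against tumour microglia (-0.12 in WT recipients), Siglec1 and Siglecg in differentiated against undifferentiated macrophages (0.35 in WT and -0.19 in Pep3 recipients) and Siglecg in undifferentiated macrophages against normal microglia (-0.19 in WT recipients). Fits of 1 strain alone, with 3 residual degrees of freedom, turned 2 of the differences called between tumour and normal microglia: Siglec1 was -0.51 in WT and Siglecg -0.95 in Pep3 recipients. Experiments 3 and 4 each set macrophages of 1 recipient strain against tumour microglia of the other.

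**Figure D3:**
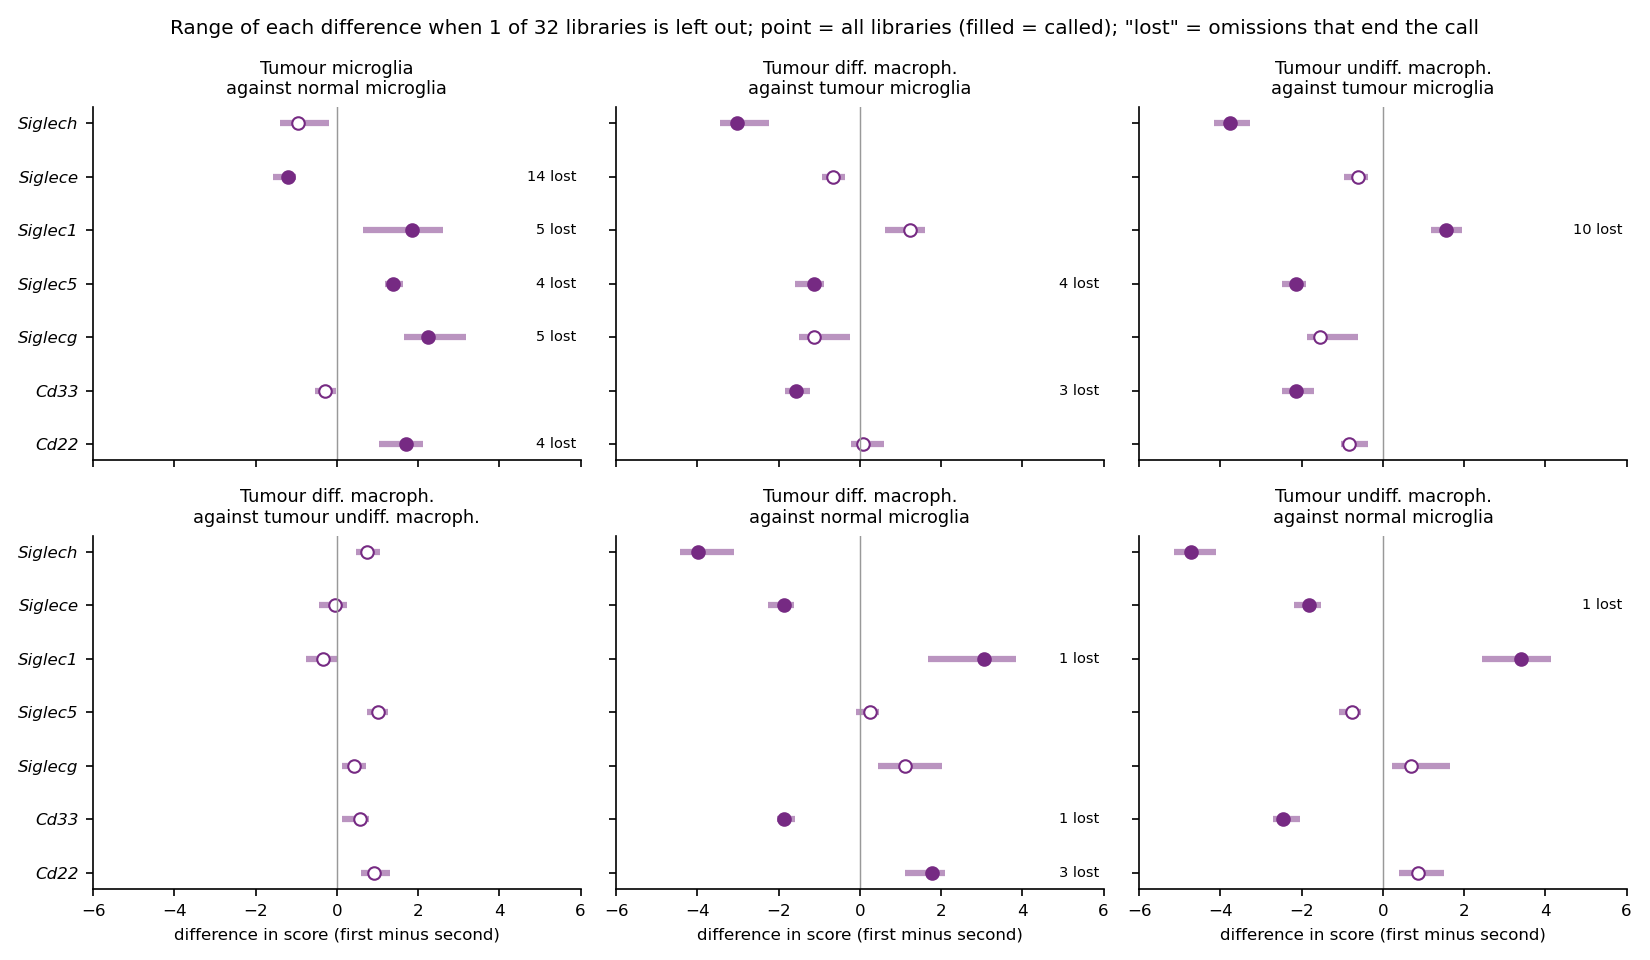
Range of each fitted difference (horizontal axis, score units) when each of the 32 libraries is left out in turn, with the value from all libraries as a point that is filled where called. The ranges of Siglech in the macrophages against either microglial population stay far left of 0. The numbers at the right count the omissions that ended a call, up to 14 for Siglece between the microglial populations.

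The genes whose scores followed each receptor most closely over the 32 libraries are given as a description, since the libraries share populations. Siglech ran with Tmem119 (Pearson r = 0.98), a microglial surface protein, Cst3 (0.98), which encodes cystatin C, and Plxdc2 (0.97). Plxdc2 was also among the 3 closest to Cd33 (0.88), with Slc46a1 (0.89), a folate transporter, and Camk1 (0.88), a calcium-dependent kinase. Siglec5 was closest to Tmsb4x (0.79), which encodes an actin-binding peptide, Cst7 (0.78), which encodes cystatin F, and the chemokine Ccl4 (0.77). Siglece was closest to the scavenger receptor Lrp1 (0.88), Trim8 (0.87) and Slc16a6 (0.83). Siglec1 was closest to Iqgap1 (0.92), a cytoskeletal scaffold, BC006779 (0.90) and Unc119 (0.90). The closest genes were less close for Cd22, with Stoml2 (0.78), Bcl2a1b (0.78) and Eef1a1 (0.75), and for Siglecg, with Gabarapl2 (0.82), AK057615 (0.78) and Fam71a (0.72).

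Among the 12 genes of receptor signalling below the Siglecs, 0 were higher and 3 lower in differentiated macrophages than in tumour microglia (list median -0.27, all genes 0.65), and 0 were higher and 4 lower in undifferentiated macrophages (0.16, all genes 0.71). At an unadjusted p below 0.05 (limma) 0 were higher in either. Of all genes, 37% were called higher and 6.35% lower in differentiated macrophages, and 36.7% higher and 5.19% lower in undifferentiated macrophages. Blnk, an adaptor downstream of Syk, was lower by -2.10 in differentiated (adjusted p = 8.96e-05) and -2.64 in undifferentiated macrophages (adjusted p = 2.66e-05). Lyn, a kinase that phosphorylates the inhibitory motifs, was lower by -1.01 in differentiated (adjusted p = 0.00982) and -1.19 in undifferentiated macrophages (adjusted p = 0.00467). Inpp5d, which encodes the lipid phosphatase SHIP-1, was lower by -1.27 in differentiated (adjusted p = 0.00105) and -0.88 in undifferentiated macrophages (adjusted p = 0.0193). The phosphatases that inhibitory Siglecs recruit were not called in either: Ptpn6 had -0.05 in differentiated and 0.35 in undifferentiated macrophages, and Ptpn11 had 0.39 in both. Between tumour and normal microglia 1 of the 12 was called, the signalling suppressor Socs3, which was higher by 2.16 (adjusted p = 0.000504). Against normal microglia 1 of 12 was higher (Socs3) and 3 lower in each macrophage population.

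**Figure D4:**
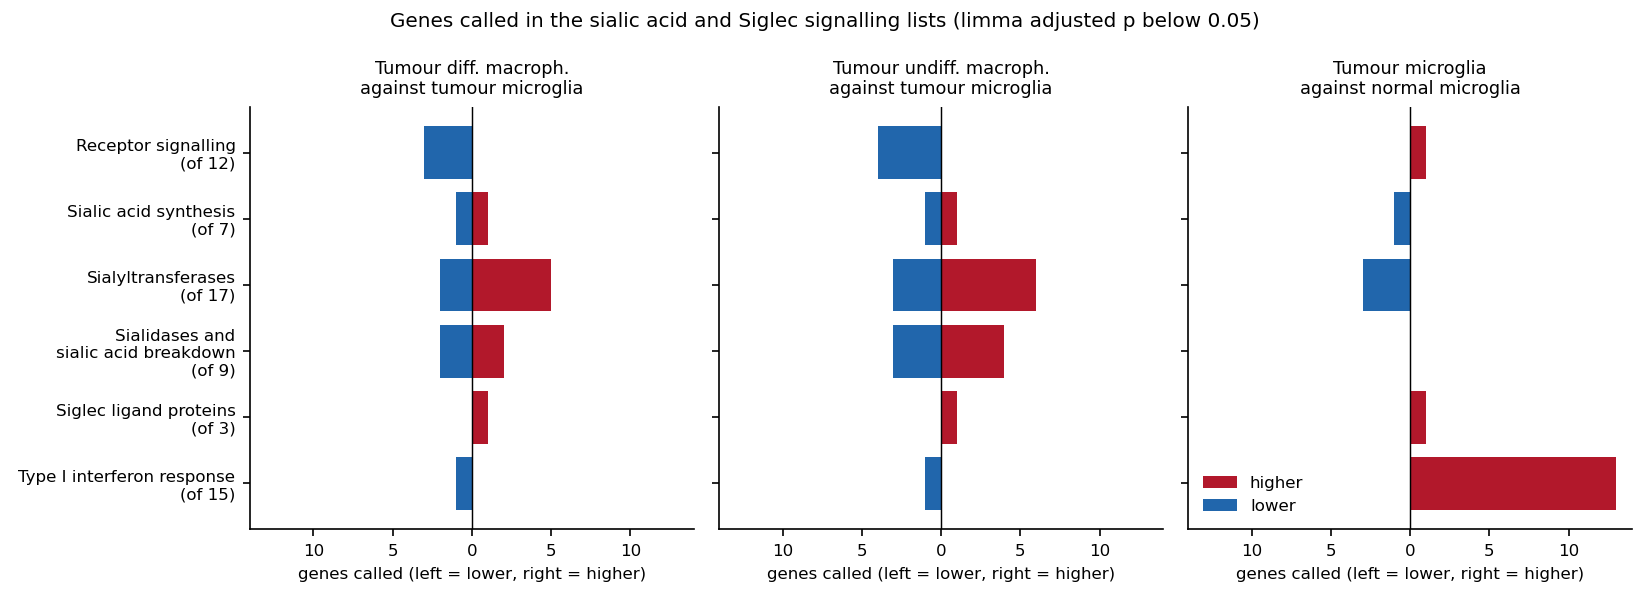
Number of genes called higher (right, red) or lower (left, blue) in each list of Siglec signalling and sialic acid genes, in both macrophage populations against tumour microglia and in tumour microglia against normal microglia. The interferon list stands out in the last panel, with 13 of 15 higher, and receptor signalling genes in the macrophages were called lower only.

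The genes that make and remove the sialic acid ligands were also read. Of 7 synthesis genes 1 was higher and 1 lower in each macrophage population than in tumour microglia. The shares of all genes were 37% higher and 6.35% lower in differentiated and 36.7% higher and 5.19% lower in undifferentiated macrophages. Cmah, which in mice converts one form of sialic acid into the hydroxylated form that several Siglecs bind, was higher by 2.75 in differentiated (adjusted p = 6.08e-06) and 2.62 in undifferentiated macrophages (adjusted p = 1.08e-05). It was lower in tumour than in normal microglia (-1.86, adjusted p = 0.000485). Cmas, which activates sialic acid for transfer, was lower in the macrophages than in tumour microglia by -2.06 in differentiated (adjusted p = 0.0018) and -1.48 in undifferentiated cells (adjusted p = 0.0233). Nans and Nanp, which act earlier in synthesis, were called in no comparison, with 1.01 for Nans and 0.63 for Nanp in differentiated macrophages against tumour microglia.

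Of 17 sialyltransferases, which attach sialic acid to glycans, 5 were higher and 2 lower in differentiated macrophages than in tumour microglia (list median 1.21, all genes 0.65), and 6 higher and 3 lower in undifferentiated macrophages (1.09, all genes 0.71). Set beside the 37% and 36.7% of all genes called higher in differentiated and in undifferentiated macrophages, these counts of higher genes are no larger than the background. Lower calls took 6.35% of all genes in differentiated and 5.19% in undifferentiated macrophages. St3gal5, the enzyme that makes ganglioside GM3, was lower by -1.75 in differentiated (adjusted p = 0.00167) and -1.43 in undifferentiated macrophages (adjusted p = 0.0102). St3gal6 was lower by -2.52 in differentiated (adjusted p = 0.000332) and -2.08 in undifferentiated macrophages (adjusted p = 0.00254). St6gal2 was higher by 1.84 in differentiated and 2.12 in undifferentiated macrophages, and St8sia2, a polysialic acid synthase, by 1.81 in differentiated and 1.88 in undifferentiated macrophages. Between tumour and normal microglia 0 were higher and 3 lower (list median -0.69; at an unadjusted limma p below 0.05, 0 higher and 6 lower), among them St3gal5 (-1.41) and St8sia2 (-1.58).

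Of 9 genes of sialic acid removal and breakdown, 2 were higher and 2 lower in differentiated macrophages than in tumour microglia. In undifferentiated macrophages 4 were higher and 3 lower. The shares of all genes were 37% higher and 6.35% lower in differentiated and 36.7% higher and 5.19% lower in undifferentiated macrophages. The sialidase Neu4 was higher by 2.16 in differentiated (adjusted p = 0.000185) and 2.22 in undifferentiated macrophages (adjusted p = 0.000251). The sialidase Neu3 had 0.996 in differentiated macrophages (adjusted p = 0.104) and was higher in undifferentiated macrophages (1.55, adjusted p = 0.0181). Npl and Nagk, enzymes of sialic acid and amino sugar breakdown, were lower in both. Npl had -1.91 in differentiated and -2.02 in undifferentiated macrophages, and Nagk had -1.46 in differentiated and -1.40 in undifferentiated macrophages. No gene of this list was called between tumour and normal microglia (limma), where 3 were lower at an unadjusted p below 0.05.

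Genes of 3 proteins known as Siglec ligands were measured, while sialic acid itself was not. Cd24a, whose protein binds Siglec-G, was higher in differentiated (1.89, adjusted p = 0.00125) and undifferentiated macrophages (1.87, adjusted p = 0.00212) than in tumour microglia. Cd52, which encodes a small surface glycoprotein, was higher in tumour microglia than in normal microglia (2.37, adjusted p = 0.000149). Spn, which encodes CD43, was called in no comparison. Mag, a Siglec of myelin-forming cells, was called in no comparison either, with differences of -0.26 to 0.24 beyond the pair of macrophage populations.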

How the data were processed

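RNA from sorted mouse brain cells was made into cDNA with a Clontech SMART-Seq v4 low-input kit, per the labels' protocols. FastQC, STAR 2.5.0a, RSEM 1.3.0 and build mm9 are named in the submitters' processing notes. The deposited table calls its values normalised counts, but they ran from -6.504 to 6.919 with a mean of 0 for each gene, so the values the authors deposited were treated as scores of unstated scale. No fold changes, levels or depths can be given. The 32 libraries spanned 21 dimensions.

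All 17586 genes and 32 libraries were fitted with limma 3.58.1 in R 4.3.3, with population differences that could vary between recipient strains. The deposited scores of each gene were centred within each recipient strain, so an overall strain difference could not be fitted. The 11 removed directions entered as covariates, leaving 15 residual degrees of freedom. Variances were moderated by robust empirical Bayes, tests were two-sided, and p-values were adjusted over all genes by Benjamini-Hochberg. Contrasts were averaged over recipient strains. The fit was tested on simulated data with independent noise in each library, so that test could not cover noise shared between libraries. The labels tie every column to 1 library, each with its own number. The numbers run in repeating rounds through the labelled groups. Whether a round marks a shared batch is not labelled, and neither pairing nor rounds were fitted.

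The 7 genes and all lists were chosen with earlier results of these data known. Each of the 7 genes is named. From each list up to 4 genes called in most of the 6 comparisons were named, and for each Siglec the 3 genes with the highest correlation. Other genes named (Tyrobp, Ptpn6, Ptpn11 and Cd79b, the last also as the lower end of a range) were chosen after their values were seen. Promoters and neighbours came from RefSeq and GRCm38 annotation, and no coordinates were moved between builds. No promoter of Siglec1 and no protein sequence was used here.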

Additional observations from a re-analysis of the deposited data

Results flagged for a closer look

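In 4 of the 28 gene and population groups 1 library stood far from the other 7, where chance gives about 1 in 20. Cd33 in undifferentiated macrophage library 21 was lowest at -3.05, with the next at -1.53. Cd33 in normal microglia library 9 was highest at 2.24, with the next at 1.20. Cd22 in undifferentiated macrophage library 13 was lowest at -1.62, with the next at -0.28. Siglecg in normal microglia library 25 was highest at 2.05, with the next at -0.58.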

How the results depend on the processing

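Differences kept their sign in most settings, but calls depended on libraries and degrees of freedom. Without covariates for the removed directions, 5, 4, 5, 0, 5 and 5 Siglec genes were called for tumour against normal microglia, differentiated and undifferentiated macrophages against tumour microglia, differentiated against undifferentiated macrophages, and each macrophage population against normal microglia, where 5, 3, 4, 0, 5 and 4 were called in the fit reported. Over all genes the fit without covariates called 3592, 9086, 8618, 0, 7862 and 6973. In the same order, 0, 3, 4, 0, 5 and 4 were called with library weights (over all genes 745, 6482, 6435, 4, 1933 and 2545). With library medians subtracted, 4, 5, 6, 0, 5 and 5 were called (over all genes 2694, 6871, 5796, 2, 4143 and 3233). With the compared populations alone, 1, 0, 0, 0, 0 and 1 were called (over all genes 473, 55, 9, 0, 76 and 438). WT recipients alone gave 0 throughout and Pep3 recipients alone 0, 0, 0, 0, 0 and 2, with 3 residual degrees of freedom, where over all genes WT recipients alone gave 0 throughout and Pep3 recipients alone 0, 0, 0, 1, 0 and 460. Without the 9 libraries that kept under 50% of their variation the count was 0 throughout (6 residual degrees of freedom), and over all genes 0, 0, 3, 1, 0 and 4. Without these and the covariates, a setting added after seeing the data, the count was 0, 3, 4, 0, 5 and 4 (over all genes 133, 5456, 5323, 0, 3255 and 3309). At an unadjusted p below 0.05, library weights gave 5 for tumour against normal microglia. Likewise, WT recipients alone gave 1, 0, 1, 0, 1 and 3, Pep3 recipients alone 1, 2, 2, 0, 6 and 5, the compared populations alone 6, 3, 4, 0, 6 and 5, and leaving out the 9 libraries 0, 0, 2, 2, 2 and 2. The fits on fewer libraries with covariates have fewer residual degrees of freedom. The fit with library weights has the same 32 libraries and 15 residual degrees of freedom as the one reported, and the cause of its lower count was not tested. Leaving out single libraries gave 0 to 6, 1 to 4, 3 to 5, 0 to 0, 2 to 6 and 3 to 5. The 0 for tumour against normal microglia came without normal library 1, 10 or 18, with 1 without tumour microglia library 27, 2 without normal library 26 and 3 without tumour microglia library 30. The 1 for differentiated macrophages against tumour microglia came without differentiated library 28, and the 2 against normal microglia without normal library 10.

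Signs turned as follows. For tumour against normal microglia, Siglec1 was -0.51 in WT recipients alone, Siglech 0.056 and Siglecg -0.95 in Pep3 recipients alone, and Cd33 0.45 without the 9 libraries. For differentiated macrophages against tumour microglia, the fit without the 9 libraries gave Siglec1 -1.10, Siglecg 3.16 and Cd33 0.57. In that comparison Siglecg was 1.17 with the compared populations alone, 1.82 in WT and 4.23 in Pep3 recipients, and Cd22 was -0.58 with medians subtracted. For undifferentiated macrophages against tumour microglia, Siglecg was 3.29 in WT recipients, 4.28 in Pep3 recipients and 2.31 without the 9 libraries, and Cd22 was 0.64 and 0.65 in WT and Pep3 recipients. Between the macrophage populations, Siglece was 0.0014 with medians subtracted, 0.11 with these populations alone, 0.040 in WT recipients, 0.26 without the 9 libraries and 0.034 without these and the covariates. There Siglecg was -1.47 in WT and -0.042 in Pep3 recipients, Cd33 -0.48 in Pep3 and Cd22 -0.39 in WT recipients. For differentiated macrophages against normal microglia, Siglec5 was -0.17 with medians subtracted, -0.0067 with weights, -0.47 with these populations alone, -0.22 in WT and -0.29 in Pep3 recipients and -0.079 without the 9 libraries and the covariates, and Cd33 was 1.02 without the 9 libraries. Omissions of 1 library turned 17 of 1344 values: Cd22 (-0.22 to 0.59) for differentiated macrophages against tumour microglia, Siglece (-0.44 to 0.25) and Siglec1 (-0.76 to 0.015) between the macrophage populations, and Siglec5 (-0.11 to 0.47, without undifferentiated library 8) for differentiated macrophages against normal microglia. The cause was not tested. No paired analysis was run, because the labels do not state which libraries belong together. Depth is unknown, so the precision of low genes could not be judged.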
